A study of Drosophila melanogaster with 3 samples.

Results

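MicroRNA precursor genes are the loci that encode the short hairpins from which microRNAs are cut. They were taken as all genes with a transcript of biotype pre_miRNA in the annotation of the dm6 assembly, which gave 260 of 17796 genes once transposable elements were set aside. The study mapped the chromatin protein Dek by chromatin immunoprecipitation and sequencing in whole embryos of *Drosophila melanogaster*, pooled from both sexes and collected between 0 and 24 h of age. The embryos were of 1 transgenic line in which Dek is made as a fusion with GFP at the C terminus from a stably inserted transgene, and anti-GFP antibody was used for the precipitation. The samples were 3 biological replicates of this 1 group, with no second condition, no untagged line and no input library among them. A binding position was the summit of a peak in the authors' list of 4736 peaks that passed the irreproducible discovery rate (IDR) step, in their pooled list, or in a replicate list. Each of the last 4 lists held 30000 peaks and ran down to peaks with a non-significant q value.

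A microRNA gene is transcribed by RNA polymerase II into a long primary transcript, in which Drosha and its partner Pasha cut out the hairpin. Dicer-1 then trims the hairpin to a duplex, and Argonaute-1 carries the mature strand, whose bases 2 to 8 (the seed) pair with target messages. Some hairpins lie in introns and ride on the transcript of a host gene, while others have transcripts of their own whose start can lie far upstream of the hairpin. For that reason a summit was sought within 500 bp of the hairpin's 5′ end, on either side, and from 1 to 5000 bp upstream of it on its own strand. Of the 260 precursors, 112 lay in an intron of a same-strand gene, 73 overlapped a same-strand exon, 27 overlapped only a gene on the opposite strand and 48 were intergenic. Of the exonic precursors, 42 lay in an exon of a non-coding RNA and 31 in an exon of a coding gene. Where some transcripts of a gene held the precursor in an intron and others in an exon, it was counted as intronic. The precursors were 50 to 174 bases long, with a median of 92. They formed 203 groups when same-strand neighbours within 10 kb were joined, and 22 of these groups held 2 to 12 precursors.

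The mature products below belong to the precursors on which the following results turn, and the capitals mark the seed. The sequences and their positions come from the RefSeq annotation and genome of the same assembly, which places all 260 precursors at the same coordinates. Of the first 4, mir-279, mir-996 and mir-9a belong to loci with some of the strongest upstream summits, and mir-ban has a summit within 500 bp. Their products are taken from the 3′ side of the hairpin (5′ side for mir-9a).
mir-279: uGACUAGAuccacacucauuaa
mir-996: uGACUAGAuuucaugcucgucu
mir-ban: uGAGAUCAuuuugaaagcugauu
mir-9a: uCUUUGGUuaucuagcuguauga
mir-279 and mir-996 share the seed GACUAGA, which 1 further precursor, mir-286, also carries. The next 6 are 3′ products of 2 clusters with an upstream summit each, and all share the seed AUCACAG, which 14 of the 260 precursors carry.
mir-2a-1: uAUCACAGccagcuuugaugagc
mir-2a-2: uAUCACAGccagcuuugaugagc
mir-2b-2: uAUCACAGccagcuuugaggagc
mir-2c: uAUCACAGccagcuuugaugggc
mir-13a: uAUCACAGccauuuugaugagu
mir-13b-1: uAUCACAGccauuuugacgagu
The last are 1 product each of mir-275 and mir-305, which share a summit, of mir-303 and mir-982, which share another, and of mir-9377, mir-966, mir-9378 and mir-4949. Each is the 3′ product, except those of mir-305, mir-303, mir-982 and mir-966, which are from the 5′ side.
mir-275: uCAGGUACcugaaguagcgcgcg
mir-305: aUUGUACUucaucaggugcucug
mir-303: uUUAGGUUucacaggaaacuggu
mir-982: uCCUGGACaaauaugaaguaaau
mir-9377: cUUGAUGGggagaaggagagg
mir-966: uGUGGGUUgugggcugugugg
mir-9378: gAACGGGAguuuccuccauugg
mir-4949: aGUGGUGUgcgugugugccucg
The seeds of these 8 products differ from each other.

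Few precursors had a Dek summit at the hairpin itself. An IDR summit lay within 500 bp of the 5′ end of 12 of the 260 precursors (4.62%, exact Clopper-Pearson 95% interval 2.41 to 7.92%). When each replicate was limited to as many of its strongest peaks as the IDR list holds, 9, 13 and 14 precursors had a summit in replicates 1, 2 and 3 (4.62 ± 1.02%, SD, n = 3). The same share was 19.6% over the 17536 other genes, counted at any annotated 5′ end, and 6.95% over the 2548 other non-coding RNA genes. The share for precursors thus lay below that for all other genes in the IDR list, and its interval included the share for other non-coding RNA genes. In the limited replicate lists the other genes reached 18.6, 20.6 and 18.3%, each above the precursors' share of 3.46, 5.00 and 5.38% in the same replicate. Genes with several annotated 5′ ends have more chances to be counted than a precursor, which has 1. Intervals cover counting error only, and the depth of each sample is unknown because the files give no read counts.

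The upstream window is about 5 times as long as the 500 bp taken on both sides of the hairpin, so the shares in the 2 windows are not comparable with each other. From 1 to 5000 bp upstream, 69 of the 260 precursors had an IDR summit (26.5%, 95% interval 21.3 to 32.3%), and the limited replicate lists gave 67, 68 and 61 (25.1 ± 1.46%, SD, n = 3). Over all other genes the share was 33.4%, and over other non-coding RNA genes it was 18.8%, so the precursors lay between these, each outside the interval. The other genes reached 32.4, 34.5 and 31.3% in the limited lists of replicates 1, 2 and 3. Among other small RNA genes, 19 of 269 snoRNA genes (7.06%) and 40 of 290 tRNA genes (13.8%) had an IDR summit within 500 bp, against 183 (68.0%) and 73 (25.2%) with one within 5 kb upstream. The 69 precursors formed 53 groups and used 74 summits, since neighbours share summits, and 190 precursors had a summit in neither window.

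The longer lists raised all of these shares. In the pooled list 61 precursors (23.5%) had a summit within 500 bp, against 44.9% of other genes, and 140 (53.8%) had one within 5 kb upstream, against 64.6%. In the full lists of replicates 1, 2 and 3, 62, 57 and 66 precursors had a summit within 500 bp (23.7 ± 1.73%, SD, n = 3), against 41.0, 47.8 and 46.0% of other genes. Upstream, 171, 158 and 155 precursors had one (62.1 ± 3.27%), against 70.2, 65.6 and 66.8%. In each of these lists the precursors' share was below that of other genes in both windows. A summit within 500 bp appeared in all 3 full lists for 20 precursors, of which 10 were among the 12 with an IDR summit, and in none for 144.

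**Figure D1:**
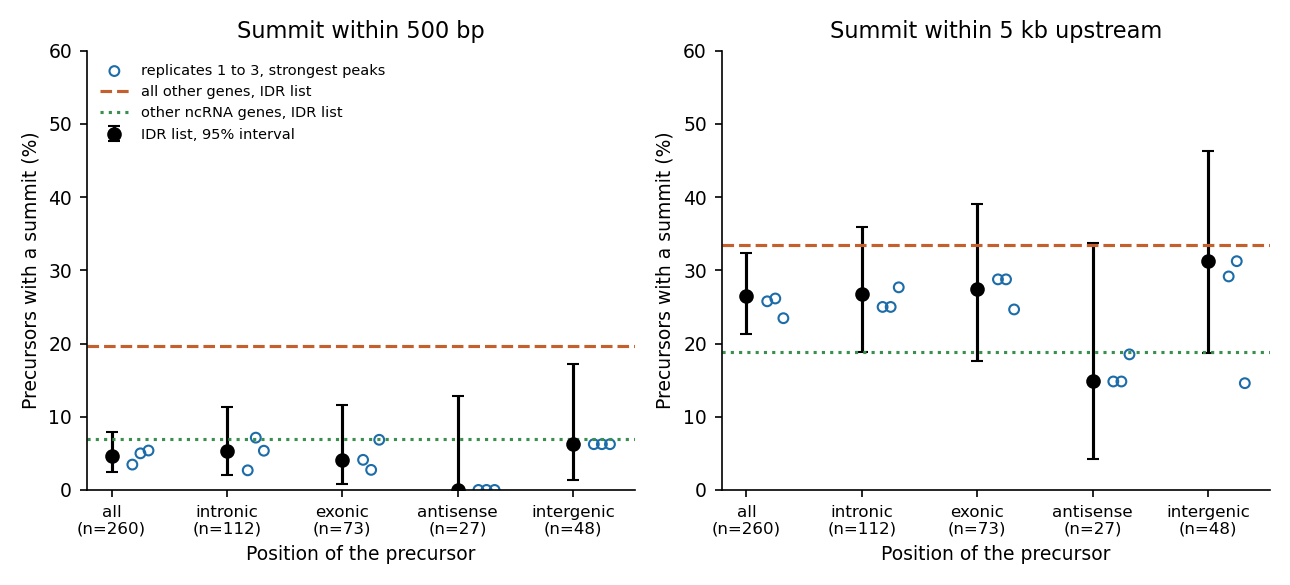
Share of microRNA precursors (percent, y axis) with a summit within 500 bp (left) or within 5 kb upstream (right), for all precursors and for each position relative to genes. Black points are the IDR list with exact 95% intervals, open circles are replicates 1 to 3 limited to as many peaks, and horizontal lines are all other genes (19.6 and 33.4%) and other non-coding RNA genes (6.95 and 18.8%) in the IDR list; every 500 bp point lies below the line for all other genes.

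Intronic and intergenic precursors were counted apart, and the difference between them was not tested. Within 500 bp an IDR summit was found for 6 of 112 intronic precursors (5.36%, interval 1.99 to 11.3%) and 3 of 48 intergenic ones (6.25%, 1.31 to 17.2%), with 5.06 ± 2.25% and 6.25 ± 0% in the limited replicate lists (SD, n = 3). For comparison, 3.32% of all intronic bases and 2.85% of all intergenic bases lay as close to an IDR summit, both inside these intervals. Upstream, 30 intronic precursors (26.8%, 18.9 to 36.0%) and 15 intergenic ones (31.3%, 18.7 to 46.3%) had a summit, against 16.3% of intronic bases and 7.50% of intergenic bases on both strands. In the IDR list both upstream shares lay above the share of bases of their class, with the whole interval above it. For intergenic precursors the limited list of replicate 3 gave 14.6%, against 27.7% for intronic ones. Its interval, 6.07 to 27.8%, reached below the 7.50% of bases found with the IDR list. When replicate 1 was left out the intergenic share was 10.4%, against 19.6% for intronic ones. Shares of bases were counted for the IDR list only, so these other lists have no base share of their own beside them. In the pooled list 25.9% of intronic and 14.6% of intergenic precursors had a summit within 500 bp. The intergenic upstream count was 14, 15 and 7 in the limited lists of replicates 1, 2 and 3, and the 7 precursors of the mir-310 cluster, which share 1 summit, make up 7 of the 15. The intervals count such neighbours as independent. Exonic precursors had 3 of 73 (4.11%) and 20 of 73 (27.4%), and precursors opposite a gene 0 of 27 (interval up to 12.8%) and 4 of 27 (14.8%).

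The upstream summits stood in different places for these classes. Of the 69 precursors, 33 had a summit at a transcription start site (TSS, to within 500 bp) of their own host or transcript, 20 had one only at a TSS of another gene, and 16 had all of them farther than 500 bp from any TSS outside microRNA genes. Among intronic precursors these numbers were 23, 1 and 6 of 30, and among intergenic ones 0, 12 and 3 of 15. Among exonic precursors they were 10, 3 and 7 of 20, and all 4 precursors opposite a gene had theirs at another gene. For the summits within 500 bp of a hairpin the same numbers were 5, 3 and 4 of 12 precursors. A TSS of the own host or transcript took precedence, so a summit counted there can also lie within 500 bp of another gene's TSS. This was so, among others, for mir-9382 (MRP and Pih1D1) and mir-4911 (ND-23 and spn-E). For mir-4911 the TSS of spn-E, which is not the host, was the nearest. An intergenic precursor can have no host by definition, so its summits can be counted only at other genes or away from all. The median distance to the nearest IDR summit was 6599 bp for intronic, 8709 bp for exonic, 28946 bp for opposite-strand and 23281 bp for intergenic precursors.

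**Figure D2:**
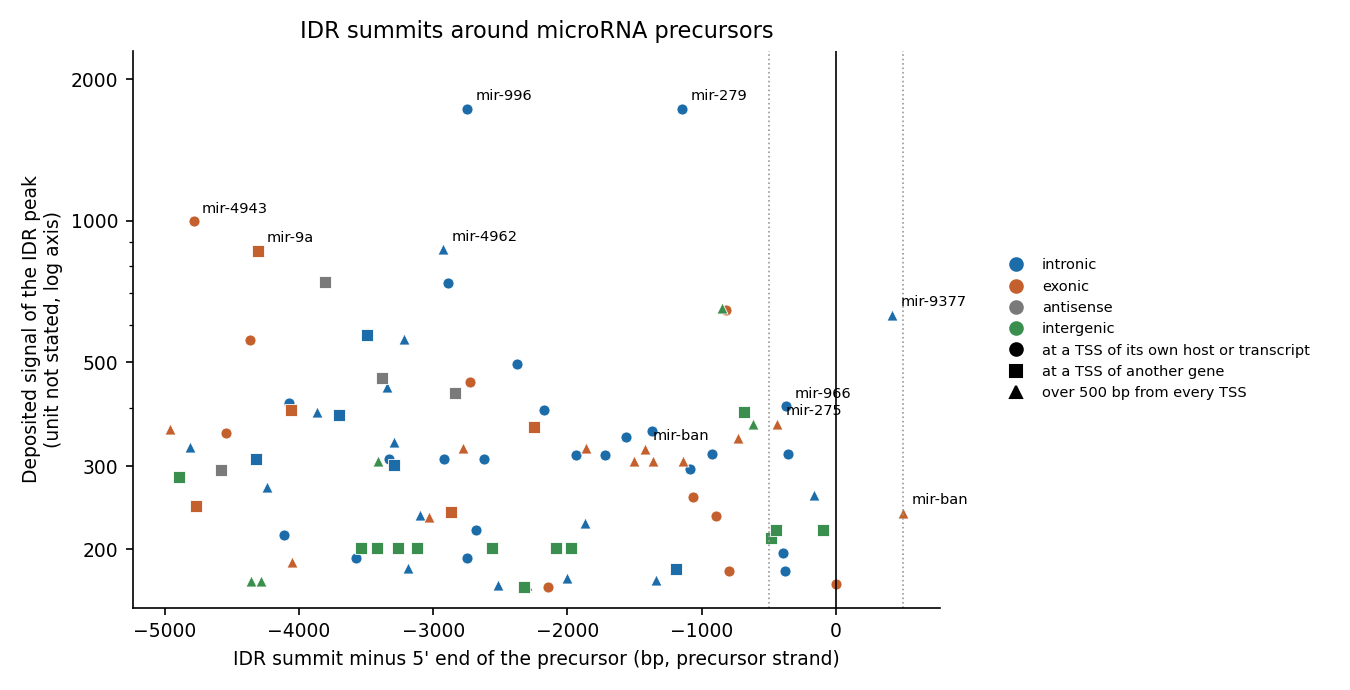
Signal of each IDR peak (y axis, the authors' value in an unstated unit, log axis) against the distance of its summit from the 5′ end of the precursor (x axis, bp, negative upstream), 1 mark per precursor and summit. Colours give the position of the precursor. Shapes tell if the summit is at a TSS of its own host or transcript (which takes precedence), of another gene only, or of none. The shared summit of mir-279 and mir-996 has the highest signal, 1731. The summits of mir-9377 and mir-ban at +417 and +498 bp are the pair that lies downstream.

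The strongest summit near any precursor lay upstream of mir-279 and mir-996, which are known in flies for limiting the number of carbon dioxide-sensing neurons. Both hairpins lie in an intron of lncRNA:CR31044, their host transcript, and 1 IDR summit stood 124 bp upstream of the TSS of that transcript. It was 1147 bp upstream of mir-279 and 2746 bp upstream of mir-996. Its signal was 1731, which ranked 59 of 4736 IDR peaks, and the peak that held it had a signal of 544, 528 and 671 in replicates 1, 2 and 3, or ranks 79, 108 and 35 of 30000. All 3 replicates thus placed it near the top. The window around the summit is shown on the strand of the precursor, with the mir-279 hairpin, in which capitals mark both annotated products.
summit upstream of mir-279 and mir-996, chr3R:29214388-29214488, plus strand: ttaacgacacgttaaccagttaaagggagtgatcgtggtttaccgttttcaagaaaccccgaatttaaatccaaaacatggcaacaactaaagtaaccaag
mir-279 hairpin: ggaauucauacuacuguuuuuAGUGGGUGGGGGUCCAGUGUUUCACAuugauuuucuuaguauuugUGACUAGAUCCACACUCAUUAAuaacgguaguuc
None of the letters GAGAG, TATCGATA, GGTCACACT or CAGGTAG was in this window.

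Among the 12 precursors with an IDR summit within 500 bp, mir-9377 had the strongest. It lies in an intron of Tis11, a zinc-finger protein of message decay, and its summit was 417 bp downstream of the 5′ end and 5100 bp from the nearest TSS, that of Tis11. The IDR signal was 631, and the replicates had 250, 274 and 127, or ranks 493, 420 and 1019. Next came mir-966, in an intron of Pfas (an enzyme of purine synthesis), with a summit 371 bp upstream of the hairpin and 34 bp upstream of the Pfas TSS. Its IDR signal was 403, and the replicates had 48.1, 182 and 141, or ranks 5873, 975 and 856. Replicate 1 was the low one here. The windows at both summits, 101 bases long, are shown for comparison, and neither held any of these 4 motifs.
mir-9377 summit, chrX:12665584-12665684, plus strand: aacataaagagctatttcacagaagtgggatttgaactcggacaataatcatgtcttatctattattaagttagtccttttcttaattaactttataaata
mir-966 summit, chr2L:6046034-6046134, minus strand: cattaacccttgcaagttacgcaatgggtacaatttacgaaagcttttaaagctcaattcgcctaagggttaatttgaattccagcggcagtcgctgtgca

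mir-275 and mir-305, neighbours in 1 cluster, shared a summit that was far from any TSS. It lay 439 bp upstream of mir-275 and 616 bp upstream of mir-305, just inside and just outside the 500 bp limit, and 1510 bp from the nearest TSS, that of muc. mir-275 lies in an exon of lncRNA:CR43857, and mir-305 was intergenic by the annotation. The IDR signal was 370, and the replicates had 74.5, 169 and 114, or ranks 3280, 1121 and 1246. A further pair of IDR summits lay upstream of mir-275, at 2144 bp with a signal of 166 (169 bp upstream of the TSS of lncRNA:CR43857) and at 4961 bp with a signal of 360. So the peak at the annotated start of this transcript was the weakest of the 3. The shared summit and the mir-275 hairpin, with its products in capitals, read as follows.
mir-275 and mir-305 summit, chr2L:7425306-7425406, plus strand: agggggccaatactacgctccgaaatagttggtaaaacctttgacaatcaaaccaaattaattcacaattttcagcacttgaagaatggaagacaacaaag
mir-275 hairpin: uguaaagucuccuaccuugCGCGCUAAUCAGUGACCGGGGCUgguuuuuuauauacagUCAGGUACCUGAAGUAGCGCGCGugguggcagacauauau

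mir-ban, the growth-promoting and cell death-suppressing bantam microRNA, lies in an exon of lncRNA:CR43334 and had a pair of IDR summits in these windows. One lay 498 bp downstream of the hairpin's 5′ end, just inside the limit, with an IDR signal of 239 and replicate signals of 73.2, 94.5 and 38.0 (ranks 3358, 3104 and 8441). The other lay 1426 bp upstream, with an IDR signal of 327 and replicate signals of 59.3, 128 and 122 (ranks 4446, 1846 and 1102). The replicates did not rank the 2 summits alike, since replicate 1 had the downstream one higher and replicates 2 and 3 the upstream one. Neither was within 500 bp of a TSS. An IDR summit with a signal of 219 did lie at a TSS of lncRNA:CR43334, but that TSS is 13773 bp from the hairpin. The window at the upstream summit held GAGAG (capitals), and the hairpin is shown with its products in capitals.
mir-ban upstream summit, chr3L:640732-640832, plus strand: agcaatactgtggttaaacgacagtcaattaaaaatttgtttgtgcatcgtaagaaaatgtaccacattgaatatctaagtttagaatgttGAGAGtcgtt
mir-ban hairpin: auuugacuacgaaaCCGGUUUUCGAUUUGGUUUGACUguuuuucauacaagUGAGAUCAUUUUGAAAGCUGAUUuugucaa

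The remaining precursors with an IDR summit within 500 bp had IDR signals from 169 to 319. The summit of mir-9378, in an intron of CG17124, lay 167 bp upstream and 4220 bp from the nearest TSS, with an IDR signal of 261 and replicate signals of 58.9, 81.4 and 113. mir-4949 lies in an intron of ATPsynC, a subunit of the mitochondrial ATP synthase. Its summit lay 361 bp upstream of the hairpin and 103 bp upstream of a TSS of ATPsynC. This summit had an IDR signal of 319 and replicate signals of 128, 89.9 and 19.8. The peak that held it ranked 1535 and 3360 in replicates 1 and 2 but 24967 in replicate 3, near the end of that list. A different peak among the 4736 strongest of replicate 3 did have its summit within 500 bp of mir-4949. mir-303 and mir-982 shared 1 summit 101 and 451 bp upstream, which lay 68 bp upstream of the TSS of CG3626, a gene on the opposite strand. Its IDR signal was 220 and its replicate signals were 56.9, 97.8 and 70.2. mir-2496 had a summit 488 bp upstream, between the TSSs of PIG-K (a subunit of the enzyme that attaches GPI anchors) and lncRNA:CR45478, with an IDR signal of 211.

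For mir-4968, mir-4980 and mir-11182 no peak of replicate 1 held the IDR summit. mir-4968 lies in an intron of Mob2, a co-activator of kinases, and its summit, 396 bp upstream and 23 bp from a TSS of Mob2, had an IDR signal of 197 and signals of 93.7 and 81.5 in replicates 2 and 3. mir-4980 lies in an intron of CanB2, a calcineurin regulatory subunit, and had an IDR signal of 180 and signals of 117 and 48.6. Its summit was 68 bp upstream of the CanB2 TSS. mir-11182 lies in an exon of CG5726 with its summit 4 bp upstream, an IDR signal of 169 and signals of 72.3 and 90.4. That summit was 12 bp upstream of the CG5726 TSS. With a list median of 267 and a lowest value of 164, these signals were all below the median of the IDR list. In the limited replicate lists, 7 of the 12 precursors had a summit within 500 bp in all 3 replicates: mir-275, mir-303, mir-982, mir-2496, mir-4949, mir-9377 and mir-9378. Of the precursors with a nearest summit just outside the limit, mir-92a had one at 530 bp, mir-305 at 616 bp and mir-4957 at 661 bp.

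**Figure D3:**
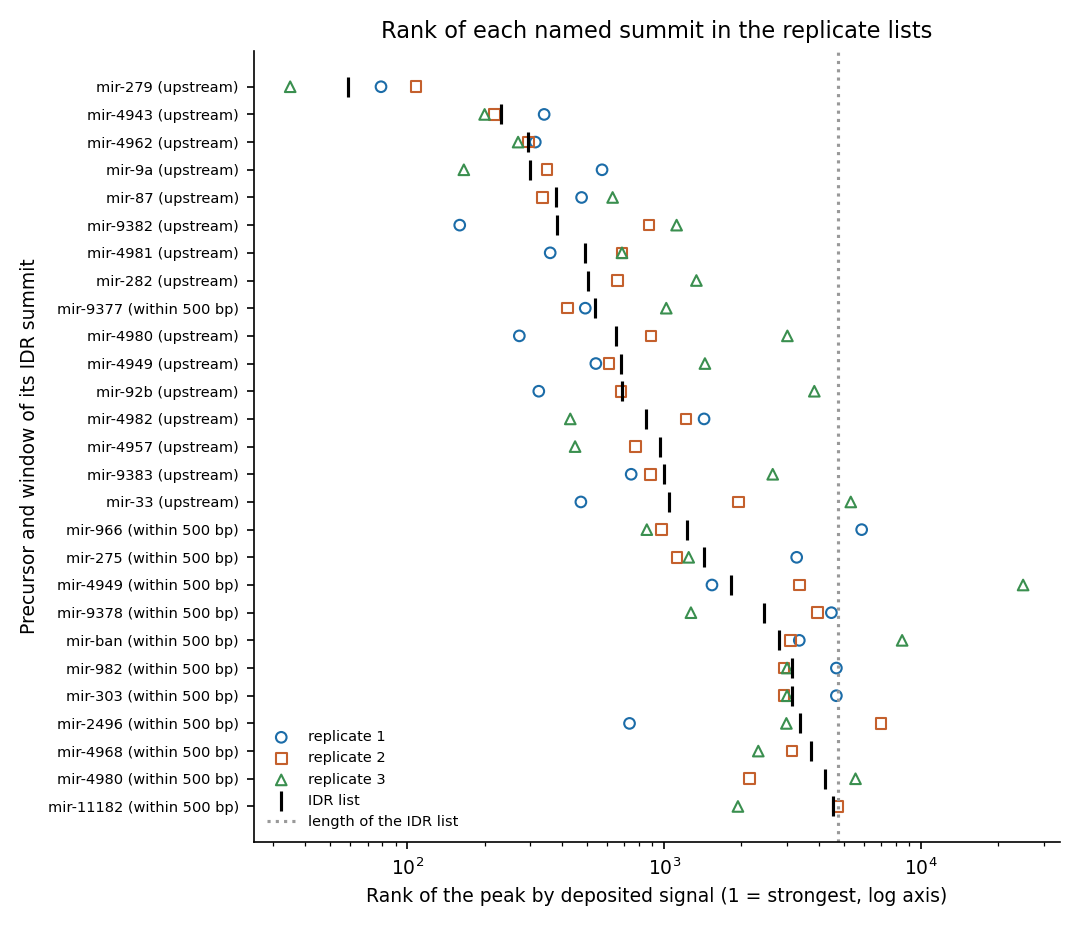
Rank of the peak that holds each named summit (x axis, log scale, 1 is the strongest) in replicates 1 to 3 and in the IDR list, for the 12 precursors with an IDR summit within 500 bp and the 15 with the strongest upstream summit. A missing symbol means that no peak of that replicate held the summit. mir-279 lies between ranks 35 and 108 in the replicates, while the mir-4949 summit within 500 bp reaches rank 24967 in replicate 3. Ranks are of the peak that holds the summit, and another peak may have its own summit nearby, as for mir-4949 in replicate 3.

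After mir-279 the strongest upstream summits were those of mir-4943, mir-4962 and mir-9a. mir-4943 lies in an exon of CG5953, and its summit, 4784 bp upstream and 398 bp from the TSS of CG5953, had an IDR signal of 998 and replicate signals of 292, 391 and 304. mir-4962 lies in an intron of Tlk, the Tousled-like kinase, and its summit, 2927 bp upstream and over 500 bp from any TSS, had an IDR signal of 870 and replicate signals of 303, 328 and 258. mir-9a, which limits sense organ precursors in flies, had a summit 4303 bp upstream near the TSS of lncRNA:CR44676, with an IDR signal of 864 and replicate signals of 226, 300 and 331. These 3 summits ranked between 166 and 573 in every replicate list.

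Several others of the 15 strongest spread more among replicates. mir-87, opposite a gene, and mir-9382, in an intron of the ABC transporter gene MRP, had upstream IDR signals of 741 and 738. The replicate signals were 252, 311 and 165 for mir-87 and 411, 191 and 121 for mir-9382. mir-4981, mir-282, mir-4980, mir-4949 and mir-92b followed with IDR signals of 652, 647, 571, 560 and 558, and mir-4982, mir-4957, mir-9383 and mir-33 with 495, 464, 454 and 443. No peak of replicate 1 held the summits of mir-282 and mir-4957. A different peak among the 4736 strongest of replicate 1 did have its summit within 500 bp of a TSS of lncRNA:CR43626, the transcript that holds mir-282. For mir-92b and mir-33, replicate 3 was the low one, with ranks of 3842 and 5327 against 325 and 474 in replicate 1.

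Host genes carried IDR summits at their own TSSs more often than the precursors did at the hairpin. Of the 106 host genes of intronic precursors, 40 had an IDR summit at a TSS, to within 500 bp (37.7%, interval 28.5 to 47.7%), and the limited replicate lists gave 37.1 ± 1.09% (SD, n = 3). Through these hosts, 47 of the 112 intronic precursors had a host with such a summit. Of the hosts, 99 were protein-coding genes, with 39 (39.4%, interval 29.7 to 49.7%), against 22.7% of the 13869 other protein-coding genes. The hosts had a median of 2 TSSs and the other genes a median of 1. Of hosts with 1 TSS 8 of 38 (21.1%) had a summit, against 17.7%, and of hosts with 2 or 3 TSSs 18 of 45 (40%), against 34.4%, both inside the interval of the hosts. Of hosts with 4 or more TSSs 13 of 16 (81.3%, interval 54.4 to 96.0%) had one, against 53.3%. So the gap between hosts and other genes was narrower among genes with fewer than 4 TSSs than in the pooled comparison.

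**Figure D4:**
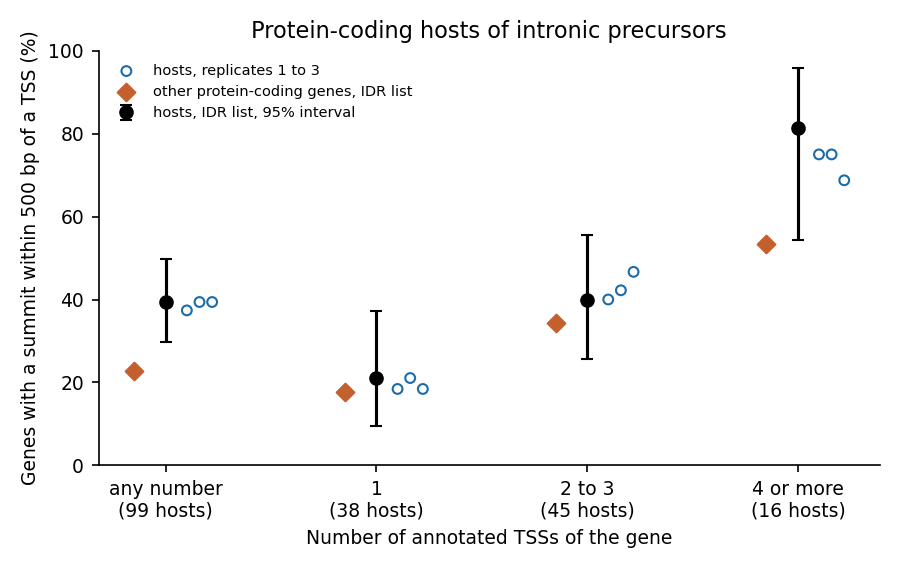
Share of protein-coding host genes (percent, y axis) with an IDR summit up to 500 bp from a TSS, for all hosts and by their number of annotated TSSs (x axis). Black points are hosts with exact 95% intervals, open circles are the 3 replicates limited to as many peaks, and diamonds are the other protein-coding genes, at 22.7, 17.7, 34.4 and 53.3%.

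The host with the strongest TSS summit was lncRNA:CR31044, the host of mir-279 and mir-996 and the 1 of 7 non-coding hosts with a summit. It was followed by spi, which encodes the EGF receptor ligand Spitz and holds mir-2a-1, mir-2a-2 and mir-2b-2, with an IDR signal of 1014 and replicate signals of 490, 353 and 179. MRP and PAPLA1, a phospholipase gene that holds mir-4984, came next with 738 and 736. The gene for, a cyclic GMP-dependent protein kinase that holds mir-4972, had 642, bun (a TSC-22 family protein, with mir-967) 573, and jigr1 (with mir-92a) 558. In the genes for and jigr1 no IDR summit was at a TSS of a transcript whose intron holds the precursor. The last of the 10 were Hs3st-A, a heparan sulfate sulfotransferase with mir-4982, at 495, and CG7029 and the deubiquitinase gene Usp12-46, which share 1 summit and mir-4953, at 494. Of 29 non-coding RNA genes with a precursor in an exon, 6 had a TSS summit (20.7%, interval 7.99 to 39.7%), against 6.95% of non-coding RNA genes outside microRNA genes. The limited replicate lists gave these 29 genes 16.1 ± 1.99% (SD, n = 3). Among the 6, lncRNA:CR43857 had no TSS summit in any limited replicate list. Of 32 protein-coding genes with a precursor in an exon, 12 had an IDR summit at a TSS (37.5%, 21.1 to 56.3%). This compares with 22.7% of protein-coding genes without an intronic precursor. Of 12 genes with a precursor in an intron on the opposite strand, 6 had one (50%, 21.1 to 78.9%). All of these but lncRNA:CR44909 were protein-coding. Among protein-coding genes without an intronic precursor the share was 22.7%, and 34.4% among those with 2 or 3 TSSs, both inside the interval. These 12 genes had a median of 2.5 TSSs, and none of these differences was tested.

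Sets of microRNAs with known roles were counted for members with an upstream IDR summit, beside 26.5% of all precursors, and differences between sets were not tested. Cluster neighbours often share 1 summit, so members of a set are not independent. Of 13 growth and survival microRNAs 9 had one (interval 38.6 to 90.9%): mir-ban, mir-14, mir-8, and the mir-2 and mir-13 genes of 2 clusters. mir-2a-1, mir-2a-2 and mir-2b-2, which in flies repress cell death genes, shared a summit near a TSS of spi, with an IDR signal of 311 and replicate signals of 68.9, 96.3 and 109. mir-2c, mir-13a and mir-13b-1 shared a summit more than 500 bp from any TSS, with an IDR signal of 309 and replicate signals of 110, 125 and 42.8. mir-14, which suppresses cell death, had an IDR signal of 235 at the TSS of its transcript lncRNA:CR43651. mir-8, the fly member of the mir-200 family, had signals of 234 and 180, the latter at the TSS of lncRNA:CR43650. That TSS summit ranked 3152, 3735 and 11119 in replicates 1, 2 and 3. No upstream IDR summit was found for mir-278, mir-11, mir-2b-1 and mir-13b-2. The host of mir-11, the cell cycle factor gene E2f1, did have a TSS summit with a signal of 261.

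Of 18 microRNAs of the nervous system and sense organs 6 had an upstream summit (interval 13.3 to 59.0%, which includes the overall share): mir-279, mir-996, mir-9a, mir-92b, mir-34 and mir-7. mir-34, which acts in the ageing fly brain, shared a summit with mir-277, a regulator of amino acid breakdown, 1861 bp upstream of mir-277 and 2775 bp upstream of mir-34. It had an IDR signal of 328 and replicate signals of 116, 138 and 102, and it lay over 500 bp from any TSS. mir-7, in an intron of HnRNP-K, had an IDR signal of 192 and replicate signals of 36.1, 54.4 and 80.1 (ranks 8946, 7242 and 2375). All 4 metabolic microRNAs (mir-275, mir-277, mir-305 and mir-33) had one (interval 39.8 to 100%). mir-33, a regulator of lipid metabolism, lies in an intron of SREBP, the lipid synthesis regulator, and its stronger summit lay 3346 bp upstream.

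All 7 precursors of the mir-310 cluster had an upstream IDR summit, but it was the same one, near the TSSs of Nnf1a and HnRNP-K. Its IDR signal was 201, and the replicate signals were 79.1, 74.3 and 30.3, or ranks 3039, 4558 and 12363. Of 14 mirtrons, short introns that fold into hairpins without Drosha, 2 had one (interval 1.78 to 42.8%): mir-1003, with a signal of 192 at the TSS of CG6695, and mir-1009, with 395 at the TSS of CG3860. Of 19 precursors in testis-expressed clusters, 2 had one, mir-303 and mir-982 (interval 1.30 to 33.1%). Both intervals include the overall share. The mir-1003 peak ranked 4195, 2748 and 13601 in replicates 1, 2 and 3. No member had an IDR summit in either window among the 8 precursors of the early zygotic mir-309 cluster, the 3 of the let-7 complex, the 4 of the Hox complexes and the 2 muscle microRNAs mir-1 and mir-133. With so few members these zeros allow shares of up to 36.9, 70.8, 60.2 and 84.2% (95% intervals), all of which include the overall share. mir-286, mir-5 and the mir-6 genes of the mir-309 cluster share a seed with precursors that did have a summit.

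Genes for proteins of the pathway were counted at their TSSs, where 9 of 23 had an IDR summit (39.1%, interval 19.7 to 61.5%), and the limited replicate lists gave 40.6 ± 2.51% (SD, n = 3). The share over other protein-coding genes, 22.7%, was inside the interval. r2d2, the partner of Dicer-2 in the small interfering RNA branch, had the highest signal, 639, with 272, 163 and 196 in the replicates. Hsp83 and Hsc70-4, chaperones that help load Argonaute, had 584 and 416. AGO1, the carrier of microRNAs, had 248, with signals of 94.7 and 109 in replicates 2 and 3 and no peak of replicate 1 at the summit. The cap-binding factor genes Cbp20 and Ars2 had 326 and 183, and the genes of message decay Pop2, DCP2 and twin had 406, 380 and 285. No IDR summit lay at a TSS of drosha, pasha, Dcr-1, loqs or gw, which cut the hairpin or act with Argonaute-1, nor at those of Ranbp21, Cbp80, Dcr-2, AGO2, Hen1, Tailor, me31B, Not1 and DCP1.

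The sequence within 100 bp of the summits was described for GC content and 4 motifs, each searched on both strands: GAGAG, TATCGATA, GGTCACACT and CAGGTAG, none of which contains another. The 11 summits within 500 bp of a precursor had 41.3 ± 6.10% GC (SD over summits) and the 74 upstream summits 36.5 ± 8.56%, beside 34.7 ± 7.39% over all 4736. GAGAG, the letters read by GAGA factor, was near 1 of the 11 (mir-9377) and 13 of the 74 (17.6%), beside 19.5% of all IDR summits. For mir-9377 the match lay outside the shorter window shown above. TATCGATA, the DRE letters, was near 1 (mir-11182) and 3, beside 4.18%, and GGTCACACT was near 1 of each, beside 2.39%, in the first case mir-4949. CAGGTAG was near 0 and 1, beside 0.697%. A match shows only that the letters are present. The positions within 500 bp of a precursor began a 50-base word found once in the genome at a median of 100% of positions, and 3 precursors, all copies of mir-10404, had under 50%.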

How the data were processed

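Per the labels, the embryos carried GFP-tagged Dek, chromatin was sonicated, and the deposited lists are on dm6. Peak strength is the signal that the authors deposited. Its unit is not stated, so it was compared only within a list or by rank. The −log10 q values that the authors deposited served only for describing the lists. Their lowest value was 3.25 for IDR peaks, 0.334 for pooled peaks, and 0.186, 0.406 and 0.407 for replicates 1, 2 and 3. Which aligner, peak caller and IDR threshold were used is not given in the sources used here. Without read counts, depth is unknown.

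Gene models came from Ensembl release 115 and sequences from RefSeq. Positions are 1-based. No peak ended beyond its chromosome arm. Counts, exact intervals (95%) and figures were made with pandas 2.3.3, scipy 1.17.1, numpy 2.4.6 and matplotlib 3.10.9 under Python 3.11.15, after the counting was tested on simulated summits. With 1 group there was no test. The peak holding an IDR summit gave its replicate signal. Named were the precursors with an IDR summit within 500 bp, the 15 groups with the strongest upstream summit, the 10 hosts with the strongest TSS summit, and list members with a summit. The members and lists were chosen with earlier results of these data known. mir-263a of the nervous system list and nbr of the pathway list found no match and were not analysed here.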

Additional observations from a re-analysis of the deposited data

How the results depend on the processing

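The values below are percentages, in the order 500 bp then 5 kb upstream, for all, intronic and intergenic precursors, beside main values of 4.62 and 26.5, 5.36 and 26.8, and 6.25 and 31.3. The upper part of the IDR list (its 2368 strongest peaks) gave 1.54 and 18.1, 2.68 and 20.5, and 0 and 10.4. All pooled peaks gave 23.5 and 53.8, 25.9 and 59.8, and 14.6 and 50. Windows of 200 bp gave 1.15, 0.893 and 2.08 and windows of 1000 bp 8.85, 8.04 and 10.4. Upstream, 2 kb gave 11.9, 11.6 and 12.5, and 10 kb gave 41.9, 42.9 and 35.4. With only summits over 500 bp from every TSS outside microRNA genes, the upstream shares were 10.4, 10.7 and 10.4. With 1 count per group of neighbours the intergenic shares were 6.67 within 500 bp and 26.7 upstream. All other genes gave 11.3 and 20.9 in the upper part, 13.5 and 23.1 at 200 and 1000 bp, and 24.3 and 43.7 at 2 and 10 kb. They stayed above all precursors in each, but the gap was wide at 2 kb (24.3 against 11.9) and small at 10 kb (43.7 against 41.9).

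For hosts (main value 37.7) and pathway proteins (39.1), the upper part gave 25.5 and 30.4, the pooled list 74.5 and 56.5, a window of 200 bp 21.7 and 34.8 and one of 1000 bp 39.6 and 43.5. Hosts gave 34.0 with only transcripts whose intron holds the precursor and 38.8 with opposite-strand genes added. All directions against other genes are counts, with no test.

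Leaving out each replicate, with peaks kept only where both others had one among as many of their strongest, gave 2.31 to 3.08 and 15.4 to 21.2 for all precursors, 1.79 to 4.46 and 16.1 to 20.5 for intronic, 4.17 to 6.25 and 10.4 to 27.1 for intergenic ones, 21.7 to 26.4 for hosts and 26.1 to 34.8 for pathway proteins. These lists held 2612 to 3167 summits, fewer than the IDR list, and other genes fell to 11.1 to 14.0 and 21.2 to 25.2. The intergenic upstream share was 10.4 without replicate 1, 12.5 without replicate 2 and 27.1 without replicate 3. Of 70 alternative values 12 moved by less than the SD of the replicates or did not move at all. No paired analysis was possible because all samples belong to 1 group. Read depth, an input and an untagged line were not analysed here, so no background level was set and a count of 0 is bounded only by its interval.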
